A study of Drosophila melanogaster with 2 samples.

Results

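The proteasome subunit genes of Drosophila melanogaster were described by the peaks of GFP-tagged CG32264 at their starts. Members were the protein-coding genes whose Ensembl symbols begin with Prosalpha, Prosbeta, Rpn or Rpt, the last pair followed by a digit. This rule used no measured value and gave 48 of the 13945 protein-coding genes on the 6 arms covered by the peak lists. They were 14 genes of the core particle, 18 of the regulatory particle and 16 testis-type paralogues, whose symbols carry a T or an R after the subunit number.

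The data were chromatin immunoprecipitation followed by sequencing (ChIP-seq) of whole wandering larvae of the third instar, with males and females mixed. The only group was a transgenic line with an insertion that makes CG32264, a relative of the Phactr proteins that bind actin and a phosphatase, with eGFP at its C terminus. An antibody to GFP was used, on chromatin sonicated to 200 to 800 bp. The 2 biological replicates carry the numbers 1 and 3, and no control library or second condition is analysed here, so no test between conditions exists. Chromatin of all tissues of the larva was mixed, so the cells behind a peak are not known. The data used were peak lists: an optimal set of 2546 peaks kept by a comparison of ranks between replicates (the irreproducible discovery rate, IDR), and lists of 30000 peaks and background regions for replicate 1, for replicate 3 and for both together. Peaks were ranked by the authors' signal within each list, with rank 1 the strongest. The optimal set held exactly the 2546 strongest entries of the list of both replicates. Signal belongs to the scale of its own list, and the read depth is not known from these lists, so a missing peak does not mean that CG32264 was absent. In the list of both replicates the authors' −log10 q ran from 0.0860 to 3.63, so its lower ranks hold weak entries.

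The proteasome is the machine that breaks down proteins marked with ubiquitin. Its core particle is a barrel of alpha rings, which form the gate, and beta rings, of which subunits beta1, beta2 and beta5 cut proteins. The regulatory particle has a base, with the Rpt ATPases that unfold and thread the substrate, and a lid, in which Rpn11 removes the ubiquitin chain. Rpn10 and Rpn13 are ubiquitin receptors. Several testis-type paralogues are known to replace their standard subunit during formation of sperm.

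Of the 48 genes 4 (8.33%) had an optimal-set summit no more than 500 bp from a start, against 10.4% of all protein-coding genes. These were Rpn5 and Rpn3 of the lid, Rpt5 of the base and Prosalpha7 of the alpha ring. By group they were 3 of 18 genes of the regulatory particle (16.7%), 1 of 14 of the core particle (7.14%) and 0 of 16 testis-type paralogues. The share of all members was close to that of protein-coding genes at large, and no test of a difference was made. A gene with more annotated starts has more chances to count: 22 of the 32 standard genes (core and regulatory particle together) have 1 start, and 3 of these 22 had a peak (13.6%), against 7.33% of protein-coding genes with 1 start.

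Each of the 4 genes stands head to head with a neighbour, that is, a protein-coding gene on the other strand starts within 500 bp upstream, and at each of them a peak of the optimal set covers both starts. The DNA strictly between the starts is shown for 3 of these pairs, with summits in or beside it. The Prosalpha7 summit also lies between the starts of its pair, but that stretch is not shown. Prosbeta3, the member with the best rank below the optimal set, is shown as well. All sequences are of Release 6 of the genome (dm6), from RefSeq, read 5′ to 3′ in the direction of the proteasome gene. Capitals mark matches to the motifs given below.
Rpn5 (chr3R:5789385-5789492, plus strand): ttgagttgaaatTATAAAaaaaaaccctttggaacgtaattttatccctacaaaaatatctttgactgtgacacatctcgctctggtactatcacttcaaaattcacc
Rpn3 (chr2L:19051613-19051789, plus strand): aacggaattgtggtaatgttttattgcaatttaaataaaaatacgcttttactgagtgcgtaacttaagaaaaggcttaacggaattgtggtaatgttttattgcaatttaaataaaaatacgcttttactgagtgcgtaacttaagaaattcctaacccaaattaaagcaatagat
Rpt5 (chr3R:23752835-23752875, plus strand): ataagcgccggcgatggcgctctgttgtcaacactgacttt
Prosbeta3 (chr3R:9006227-9006455, minus strand): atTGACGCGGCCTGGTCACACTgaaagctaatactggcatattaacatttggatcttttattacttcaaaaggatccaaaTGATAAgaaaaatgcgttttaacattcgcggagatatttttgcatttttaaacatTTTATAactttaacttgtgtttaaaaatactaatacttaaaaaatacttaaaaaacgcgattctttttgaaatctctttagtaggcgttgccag

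These stretches are short, with 108 bp between Rpn5 and Hat1, 177 bp between Rpn3 and l(2)37Bb and 41 bp between Rpt5 and RanBP3. In the Rpn3 stretch a run of 72 bp stands at base 1 and again at base 79, so that both copies lie under the peak. How reads that match both copies were treated is not given in the sources used here. The GC content was 32.4% in the Rpn5 stretch, 28.8% in that of Rpn3 and 53.7% in that of Rpt5.

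Rpn5 (FBgn0028690, chr3R:5789493-5791569, plus strand), a lid subunit, had the strongest peak among the members in the list of both and in replicate 1, while Rpt5 had it in replicate 3. It had rank 973 in the list of both replicates (signal 105.3, chr3R:5789022-5789397), rank 562 in replicate 1 (83.9) and rank 3440 in replicate 3 (25.2). The summit lay 283 bp upstream of the Rpn5 start, in an intron of Hat1, which encodes a histone acetyltransferase, and 136 bp from the nearer Hat1 start. A weaker, overlapping peak of the optimal set (rank 2107, signal 68.5, chr3R:5789223-5789598) had its summit 82 bp from the Rpn5 start and 27 bp from that of Hat1. Replicate 1 also had a pair of peaks there, while replicate 3 had 1 within the window. Both peaks were thus nearer to Hat1 than to Rpn5.

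Rpn3 (FBgn0261396, chr2L:19051790-19053681, plus strand), another lid subunit, had a peak of rank 1338 in the list of both replicates (signal 87.7, chr2L:19051539-19051914). Its rank was 1164 in replicate 1 (signal 57.1) and 4337 in replicate 3 (22.2). The summit was 63 bp upstream of the Rpn3 start and 115 bp from that of l(2)37Bb, at base 115 of the stretch shown above, within the second copy of the repeat. Rpt5 (FBgn0028684, chr3R:23752876-23754623, plus strand), an ATPase of the base, had rank 1352 (signal 87.3, chr3R:23752663-23753038), with rank 1421 in replicate 1 (51.4) and 1566 in replicate 3 (36.9). Its summits in the lists of replicates 1 and 3 were 2 and 4 bp from that of the list of both, and the latter lay 25 bp from the Rpt5 start and 17 bp from the start of RanBP3, a gene of the Ran-binding protein family. Rpt5 was the only one of the 4 genes with a top 2546 peak in each replicate.

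Prosalpha7 (FBgn0023175, chr2R:9846636-9847836, minus strand), an outer ring subunit of the core, had the weakest of the 4 best peaks in the list of both and in replicate 1. Its rank was 2138 in the list of both replicates (signal 67.9, chr2R:9847757-9848132), 2068 in replicate 1 (41.6) and 3797 in replicate 3 (24.0). The summit lay 109 bp from the start of Prosalpha7 and 116 bp from that of CG1671, almost midway. The next member below the optimal set was Prosbeta3 at rank 3727, so no member lay just past the limit of 2546.

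**Figure D1:**
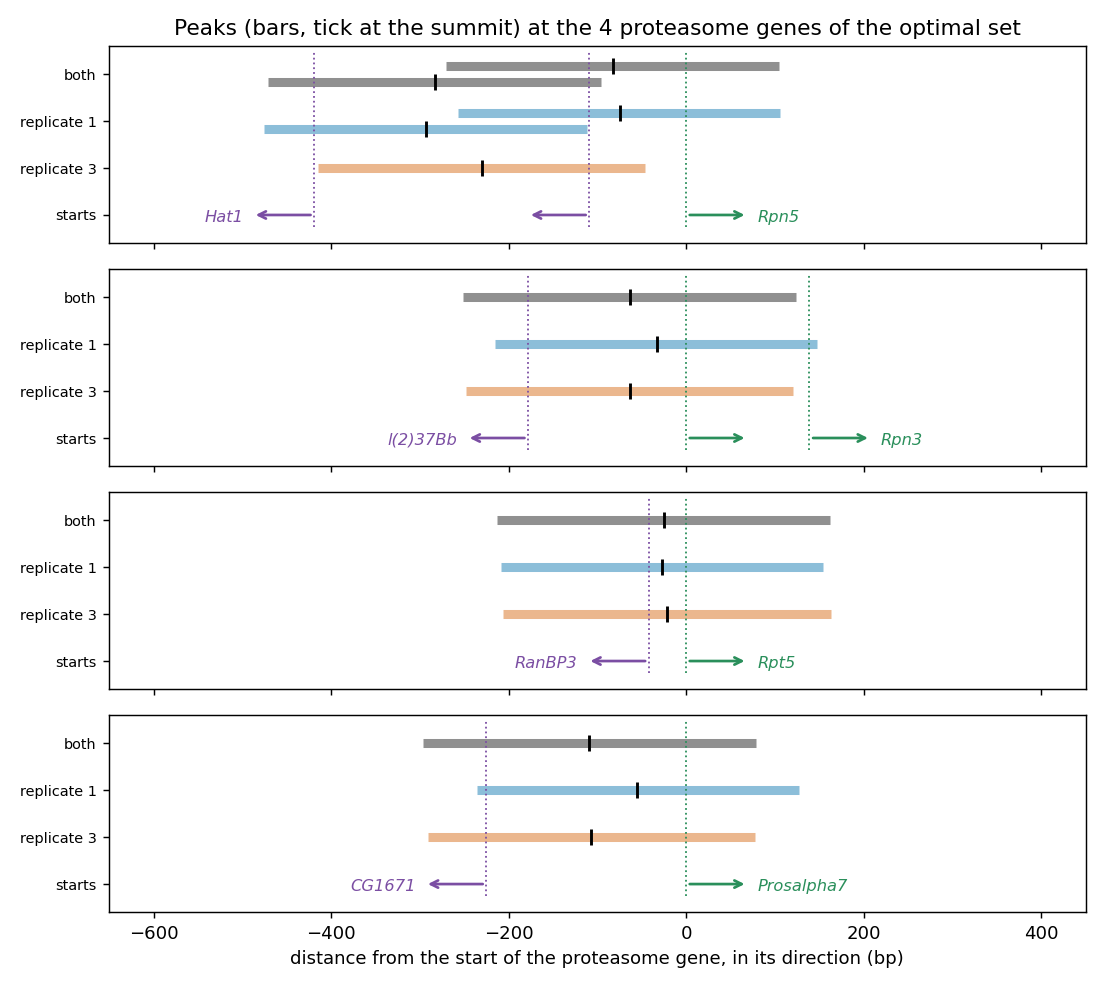
Peaks within 500 bp at Rpn5, Rpn3, Rpt5 and Prosalpha7 (top to bottom) in the list of both replicates and in replicates 1 and 3; the x axis is the distance in bp from the proteasome gene's start, bars are peaks with a tick at the summit, and arrows are annotated starts of the gene and its head-to-head neighbour. At Rpn3, Rpt5 and Prosalpha7 every bar spans the DNA between the starts, at Rpn5 the stronger peak of replicate 1 ends just short of it, on the Hat1 side, and the summits of Rpt5 in the 3 lists lie 21 to 27 bp upstream of its start.

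The count of 4 genes leaned on replicate 1. Among the top 2546 peaks of replicate 1 alone, 5 members had a peak (10.4%, against 11.0% of protein-coding genes), namely the same 4 and Rpn8. In those of replicate 3 alone there were 2 (4.17%, against 9.39%), Rpt5 and Rpn2. When a peak was counted only for the gene with the nearest start, a setting chosen after seeing the data, Prosalpha7 and Rpn3 were left (2 of 48, against 7.61% of protein-coding genes).

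Further down the lists the standard subunits and the testis-type paralogues had different counts. Any peak of the list of both replicates lay at 19 of the 32 standard genes (59.4%), against 45.8% of protein-coding genes, and at 1 of 16 testis-type paralogues (6.25%). The order depended on the rank reached in that list. Down to rank 5750 the share was 15.6% of standard genes and 20.2% of protein-coding genes. Down to rank 6250 it was 25.0% and 21.6%. In replicate 1 the counts were 19 of 32 (59.4%) and 1 of 16, against 44.7%. In replicate 3 they were 24 of 32 (75.0%) and 0 of 16, against 50.6%. Many standard genes stand head to head with a neighbour, as given below. Of these 21 genes 66.7% had a peak in the list of both, 61.9% in replicate 1 and 81.0% in replicate 3. The shares of all such protein-coding genes were 59.8%, 59.2% and 69.5%. Of the 11 standard genes without such a neighbour the shares were 45.5%, 54.5% and 63.6%. Those of all protein-coding genes without one were 40.5%, 39.2% and 43.5%. These whole lists hold background regions as well as peaks, and no difference between groups of genes was tested.

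**Figure D2:**
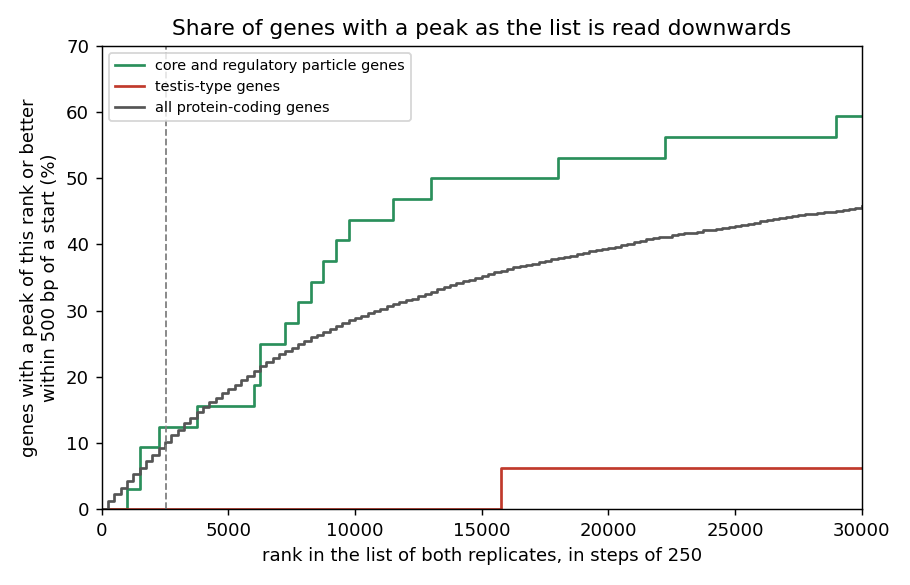
Share of genes (y axis, %) with a peak of a given rank or better (x axis, in steps of 250) within 500 bp of a start in the list of both replicates, for the 32 core and regulatory particle genes, the 16 testis-type genes and all 13945 protein-coding genes; the dashed line is the limit of the optimal set, 2546. At the end of the list the shares are 59.4%, 6.25% and 45.8%.

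In the list of both replicates a peak of any rank lay at 13 of 18 genes of the regulatory particle (72.2%). In the core particle it was 6 of 14 (42.9%). The lid had 7 of 8, the base 6 of 10, the beta ring 4 of 7 and the alpha ring 2 of 7. The share was 45.8% over all protein-coding genes and 59.8% over those head to head. In replicate 1 the regulatory particle had 77.8% and the core 35.7%, against 44.7% of protein-coding genes. In replicate 3 they had 83.3% and 64.3%, against 50.6%. With 1 annotated start in 10 of 18 regulatory particle genes and 12 of 14 core genes, the former had more chances to count. The median best rank was 8537 over the 13 genes of the regulatory particle and 5977.5 over the 6 of the core, against 6775 over the protein-coding genes with such a peak. In replicate 1 the medians were 9433.5 (14 genes of the regulatory particle) and 7969 (5 of the core), and in replicate 3 they were 7286 (15 genes) and 8192 (9 genes), so the order of the medians differed between replicates.

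In the core particle Prosbeta3 had rank 3727 (signal 49.2) in the list of both replicates and 8192 (15.4) in replicate 3, with no peak in replicate 1. Prosbeta7 had ranks 5787, 4666 and 22032 in the list of both, replicate 1 and replicate 3. Prosalpha4 had ranks 6168, 11568 and 3164, with its summits 285 to 465 bp upstream, past the start of its neighbour kat80, a katanin subunit gene that starts 90 bp away. Prosbeta7 had its better rank in replicate 1, and Prosbeta3 and Prosalpha4 in replicate 3.

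Prosbeta2, the catalytic subunit with trypsin-like activity, had ranks 7631, 7969 and 7687 in the same order. Prosbeta1, the catalytic subunit with caspase-like activity, had ranks 22134 and 21339 in the list of both and in replicate 1 and no peak in replicate 3. Prosbeta5, the chymotrypsin-like subunit, had a peak only in replicate 3, at rank 11087. All 3 catalytic beta genes thus stayed below the optimal set in each list.

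Prosalpha5, Prosalpha6 and Prosbeta6 too had a peak only in replicate 3, at ranks 5414, 27521 and 18026. Prosalpha1, Prosalpha2, Prosalpha3 and Prosbeta4 had none in any list, and their nearest summits in replicate 3 were 2642, 2567, 1881 and 4373 bp away.

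In the regulatory particle Rpn13, a ubiquitin receptor of the base, had ranks 6205, 6353 and 3837 in the list of both, replicate 1 and replicate 3. The ATPase genes Rpt2 and Rpt1 had ranks 7052 and 9171 in the list of both, with the summits 2 and 24 bp from a start. The lid genes Rpn6, Rpn7, Rpn9 and Rpn12 had ranks 8065, 8537, 9563 and 11320 there. These 7 genes each had a peak in all 3 lists.

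Rpn10, the other ubiquitin receptor, had ranks 12858, 15578 and 26807, with the summit 497 bp from the start and so barely inside the window. Rpt3 had rank 17993 in the list of both alone. Rpn11, the deubiquitinase, had ranks 28913 and 15008 in the list of both and in replicate 1, and its nearest summit in replicate 3 lay outside the window, at 560 bp. Rpt4 had a peak only in replicate 3, at rank 22373, and Rpn1, a scaffold of the base, had none in any list.

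Rpn8 and Rpt6 had a peak in each replicate but none in the list of both, and Rpn2 had a peak in replicate 3 alone, at a rank within its top 2546. Rpn8 is a lid subunit head to head with the kinase gene Slik (325 bp between starts). It had rank 1620 in replicate 1 (signal 47.4) and 4031 in replicate 3 (23.2). These best summits lay inside the annotated Rpn8 gene, 211 and 136 bp upstream of a later start. Yet the nearest summit in the list of both replicates was 8864 bp from the starts of Rpn8. Rpn2, a scaffold of the base head to head with Slbp, the histone mRNA binding protein gene, had rank 2151 in replicate 3 (signal 31.6). Its nearest summit in the lists of replicate 1 and of both was 4360 bp away. Rpt6 had ranks 18726 and 8875 in replicates 1 and 3 and no peak in the list of both.

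Of the 17 standard genes with a peak in each replicate, Rpn8 and Rpt6 had none in the list of both (11.8%). Among protein-coding genes the same held for 256 of 4809 (5.32%). The cause was not tested.

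**Figure D3:**
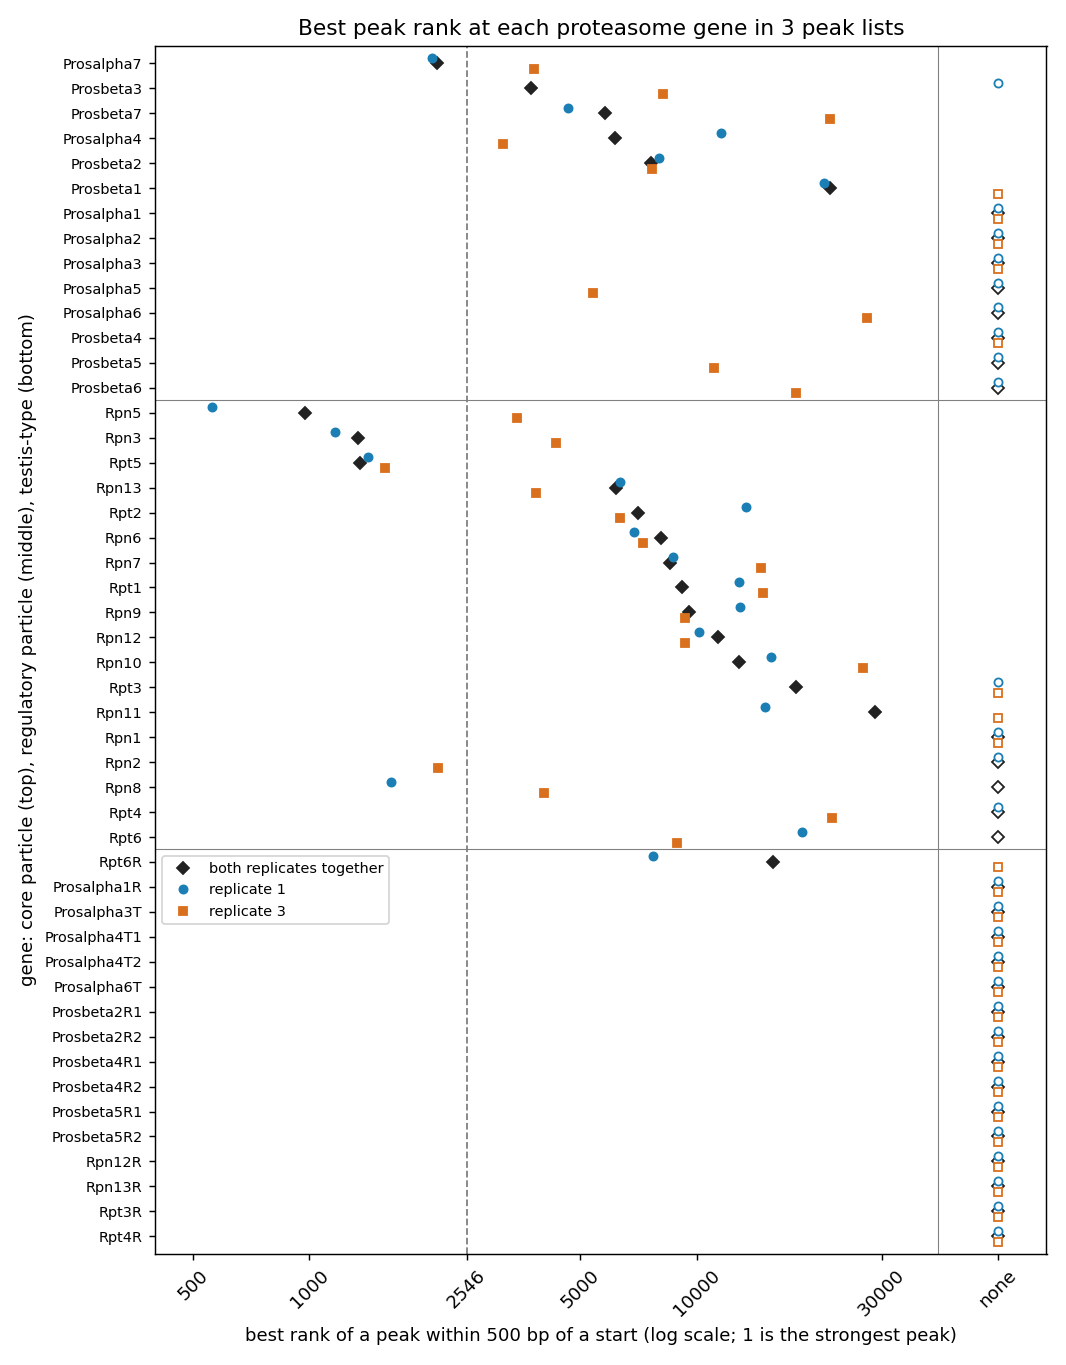
Best rank (x axis, log scale) of a peak within 500 bp of a start of each of the 48 genes (y axis) in the list of both replicates (diamonds), replicate 1 (circles) and replicate 3 (squares); open symbols at the right mark no peak in the list, and the dashed line is rank 2546. Rpn5, Rpn3, Rpt5 and Prosalpha7 lie left of the line in the list of both, and Rpt6R alone among the testis-type genes has a peak in any list.

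The replicates differed in which standard genes had a peak at all. Both held a peak at 17 of 32 genes, replicate 3 alone at 7, replicate 1 alone at 2 and neither at 6. For all protein-coding genes the shares were 34.5%, 16.2%, 10.2% and 39.2%, against 53.1%, 21.9%, 6.25% and 18.8% for the standard genes. Over the 17 genes with both, Spearman's rho of the ranks was 0.569, and over 4809 protein-coding genes it was 0.618. These rhos describe genes, which share the same libraries and are not independent replicates.

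Where a member had a peak, its best summit mostly lay upstream of the nearest of the gene's own starts. At Rpn6, Rpn9, Prosbeta7 and Rpt2 that start was a later one in the list of both, so the summit lay inside the gene. In the list of both replicates the best summit was upstream of the nearest own start in 20 of 20 members, Rpt6R included, against 76.6% of 6381 protein-coding genes and 80.3% of those with 1 start and a peak. In replicate 1 it was upstream in 18 of 20, against 76.9%, and in replicate 3 in 21 of 24, against 70.6%. The exceptions were Rpt2 (1 bp downstream) and Rpt6R (26 bp) in replicate 1, and Prosbeta2 (20 bp), Rpn9 (191 bp) and Rpt6 (398 bp) in replicate 3. The median distance in the list of both was 123 bp over the 20 members and 149 bp over protein-coding genes.

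**Figure D4:**
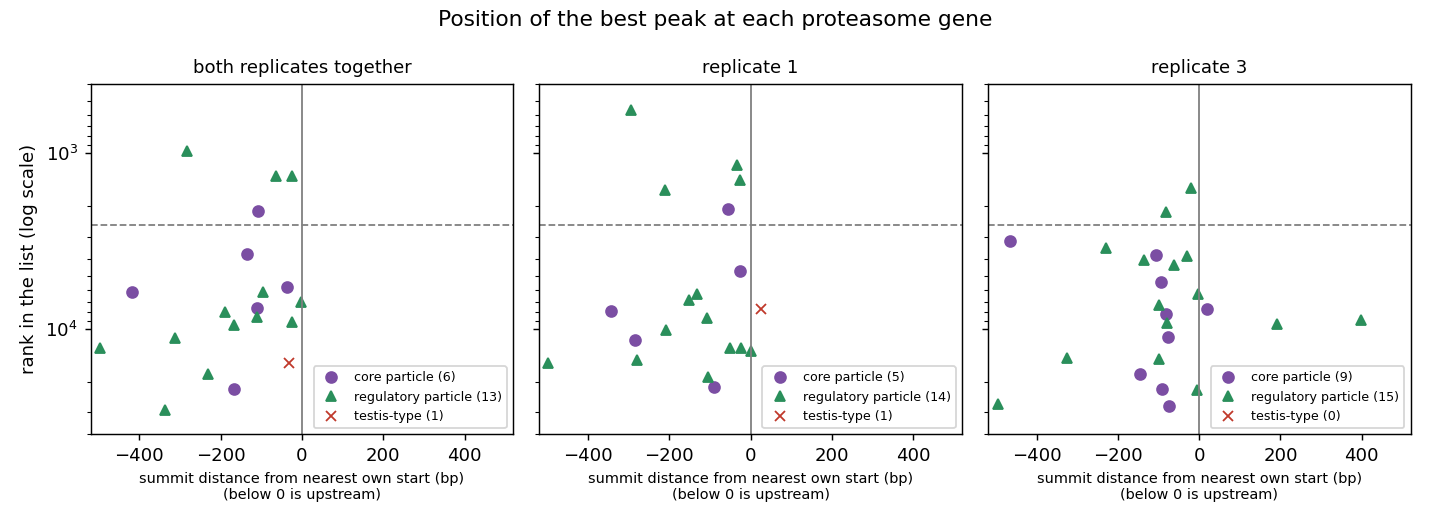
Distance of the best summit from the nearest own start (x axis, bp, below 0 upstream) against its rank (y axis, log scale, best at the top) for the members with a peak, in the list of both replicates, replicate 1 and replicate 3; the dashed line is rank 2546 and numbers in brackets are genes. All 20 points of the first panel are left of the nearest own start.

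The standard genes stood head to head with a neighbour in 21 of 32 cases (65.6%), against 27.4% of protein-coding genes and 3 of 16 testis-type paralogues (18.8%). The split was close in the core (9 of 14) and the regulatory particle (12 of 18). Of the 21, 4 had a peak of the optimal set (19.0%), against 20.9% of head-to-head protein-coding genes. Of the other 11 none had, against 6.46% of protein-coding genes without such a neighbour. The 500 bp limit for a neighbour was chosen after the 4 pairs were seen. Since a peak in such a pair is near both starts, it cannot be said which gene it belongs to.

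Of the testis-type paralogues only Rpt6R, a paralogue of the ATPase Rpt6, had a peak. It had rank 15725 in the list of both (signal 20.2, 31 bp upstream, −log10 q 0.338) and 7728 in replicate 1 (19.4), with none in replicate 3. The nearest summit of the optimal set was 3408 to 131316 bp from the starts of the 16 paralogues (median 38280.5 bp), against a median of 8095.5 bp in the core and 6103 bp in the regulatory particle. The closest standard genes were 109 bp (core) and 25 bp (regulatory particle) from such a summit. This distance was not taken over all protein-coding genes. Of these paralogues 14 of 16 have 1 annotated start, as do 12 of 14 core and 10 of 18 regulatory particle genes, so the latter had more chances to count.

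The promoters, taken from 250 bp before to 50 bp after the first start, were searched on both strands for 7 motifs. The element bound by Dref, a factor of genes for growth and replication, is TATCGATA, and it was in 12 of the 32 standard promoters (37.5%), against 9.36% of all protein-coding promoters and 17.4% of those head to head. It was in 6 of 14 promoters of the core, 6 of 18 of the regulatory particle and 0 of 16 testis-type promoters. Among the genes with the element 2 of 12 had a peak of the optimal set, Rpn3 and Rpt5, and among the others 2 of 20, Rpn5 and Prosalpha7. Over protein-coding genes the shares with a peak were 15.1% with the element and 9.91% without it.

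The element is shown in capitals with 11 bases on each side, in the direction of the gene, for 8 of the 12 genes. Its distance is given from the first start. Of the genes shown, Prosalpha6 and Prosbeta6 had a peak only in replicate 3. Rpn13 and Prosbeta1, not shown, had a peak in the list of both. The element begins 46 bp upstream of the start of Rpt5, 21 bp beyond the summit, and 197 bp upstream of that of Rpn3, past the start of l(2)37Bb. In Prosbeta2, Prosalpha6, Prosbeta6 and Rpn12 it begins 10, 16, 44 and 216 bp upstream. In Rpn7 and Rpn9 it lies within the first bases downstream of the first start. The best Rpn9 summit in the list of both lay farther inside the gene, upstream of a later start.
Rpt5 (chr3R:23752819-23752848, plus strand): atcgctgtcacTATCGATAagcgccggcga
Rpn3 (chr2L:19051582-19051611, plus strand): tgttatcggagTATCGATAtcgaaaaggct
Prosbeta2 (chr3L:14999930-14999959, plus strand): ccatgaatataTATCGATAcaatatcgatt
Prosalpha6 (chr2L:10221324-10221353, plus strand): cccgaatccctTATCGATAcccgatacaca
Prosbeta6 (chr3L:16610444-16610473, minus strand): gtatgtataccTATCGATAacgtttaagca
Rpn12 (chr3L:16582801-16582830, plus strand): ttgttaaaataTATCGATAttaaagcacaa
Rpn7 (chr3R:22462033-22462062, minus strand): gcggtataattTATCGATAattttggggtc
Rpn9 (chr3R:23733418-23733447, minus strand): gcccggttaaaTATCGATAttctcgcggat

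The core promoter element of M1BP, GGTCACACT, was in 5 of 32 standard promoters (15.6%) and in 0 of 16 testis-type promoters. It was in 6.05% of all protein-coding promoters and 11.7% of those head to head. The antioxidant response element of Cnc and Maf-S, TGACNNNGC, was in 5 of 32 (15.6%, against 8.63%). They were Prosalpha2, Prosbeta3, Rpn1, Rpn7 and Rpt6, and none of these had a peak of the optimal set. In Prosbeta3 a match of this element overlaps the M1BP element, as the stretch shown above has it. The E-box CACGTG was in no member's promoter, against 4.20%.

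The element GAGAG was in 3 of 32 standard promoters (9.38%) and in 6 of 16 testis-type promoters (37.5%), against 29.7% of all. The testis-type share was below that of all promoters in narrower windows centred on the start, at 6.25% against 11.5% with 50 bp to each side and 6.25% against 22.5% with 100 bp. The GATA site in the form TGATAA was in 8 of 32 (25.0%) and 6 of 16 (37.5%), against 22.7%, and the TATA box TATAAA in 13 of 32 (40.6%) and 5 of 16 (31.2%), against 45.8%. The median GC content of the promoter was 33.5% over the 32 genes, 32.7% over the 16 and 38.0% over all promoters. A match is a string of letters, not a bound site.

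**Figure D5:**
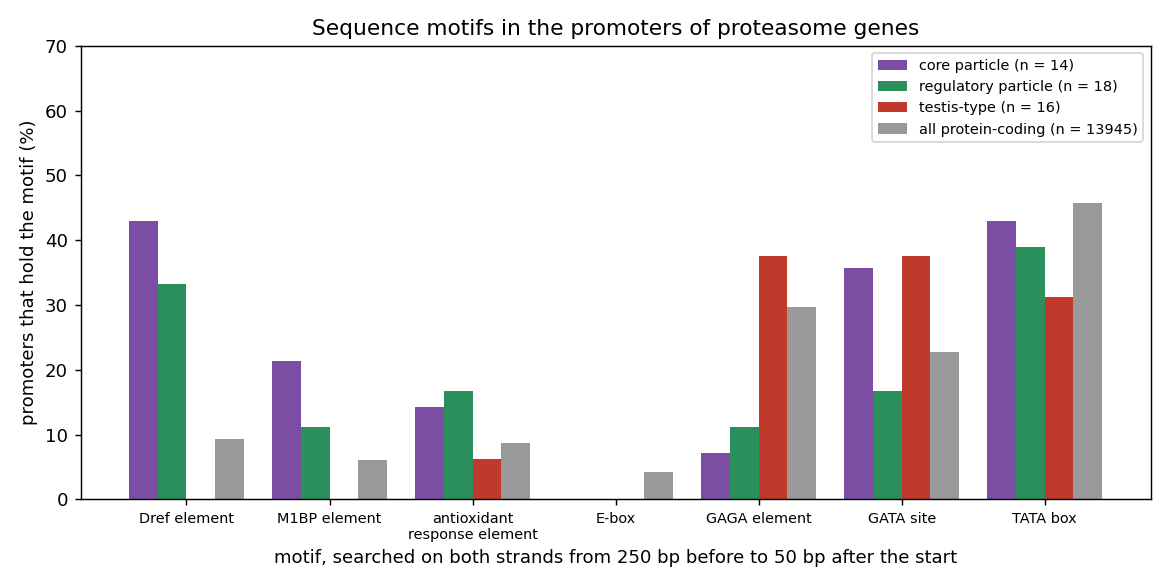
Share of promoters (y axis, %) that hold each of 7 motifs (x axis) for core particle, regulatory particle, testis-type and all protein-coding genes. The Dref element is in 42.9% of core and 33.3% of regulatory particle promoters, 0 of the testis-type ones and 9.36% of all.

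Genes that work with the proteasome were taken from 4 lists, of which 62 of 67 symbols matched a protein-coding gene on the 6 arms. A peak of the optimal set lay at 9 of the 62 (14.5%), against 10.4%. Helpers of the proteasome had 3 of 21, led by cnc, which encodes the transcription factor known to raise proteasome gene expression under stress (rank 395, signal 163.6, 330 bp downstream of a start, chr3R:23189901-23190276). It ranked 356 in replicate 1 and 651 in replicate 3, higher in all 3 lists than any proteasome subunit gene. The other helpers were CG11885 (rank 1804) and CG12321 (rank 2540, close to the limit).

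Ubiquitin genes and the enzymes that activate and carry ubiquitin had 4 of 20. Among them were RpS27A (rank 1141), the polyubiquitin gene Ubi-p63E (1251) and the conjugating enzyme gene ben (1476). The product of RpS27A is ubiquitin fused to a ribosomal protein, and its peak was 72 bp both from its own start and from a start of Ip259. The cullin ligase genes had 2 of 12, EloB (1288, nearer to a start of Srp14) and Cul5 (2042). The COP9 signalosome, a complex built like the lid, had 0 of 9.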

How the data were processed

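Deposited dm6 peak lists were used: the optimal IDR set, and the lists of peaks and background for replicate 1, replicate 3 and both together. Per the deposited notes, each list of 30000 was made from alignments and 1 further file. The sources used here name no aligner, peak caller or threshold. The peak signal is the authors' value, on a scale of its own in each list, and was used only to rank peaks. The deposited −log10 q was between 2.66 and 3.63 for the optimal peaks and entered no test. The dm3 lists were not used.

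Starts came from Ensembl release 115 (BDGP6) and sequence from RefSeq Release 6. No peak ended past its arm. A gene had a peak when a summit was at most 500 bp from 1 of its starts, and the best rank was kept. Head to head was set after the data were seen. Counts stand beside the same count over protein-coding genes, with no test, since there is 1 group. Members and lists were chosen with earlier results of these data known. Every member with a peak of the optimal set was named in full, the others by rank, and pathway genes only where they had such a peak, of which 1 is not reported here by name. The counting was checked on peaks and motifs placed at known positions. Python 3.11.15, pandas 2.3.3, numpy 2.4.6, scipy 1.17.1 and matplotlib 3.10.9 were used.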

Additional observations from a re-analysis of the deposited data

How the results depend on the processing

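The count of 4 members with a peak (8.33%, against 10.4% of protein-coding genes) was 1 with the stronger 50% of peaks (Rpn5; 5.37% of protein-coding genes), 1 with peaks that overlap a top peak of both replicates (Rpt5; 6.16%) and 2 with the nearest start only, a setting added after seeing the data (7.61%). Leaving out a replicate gave 2 to 5. Within 100 bp it was 3 of 48, a share above that of protein-coding genes (3.71%). Windows of 250 and 1000 bp, any base of the peak, or the start of the longest transcript gave 4, from 5 distinct peaks. In these settings the shares of protein-coding genes were 8.25%, 12.6%, 11.2% and 8.74%, in that order, beside 8.33% of members. The core count of 1 was 0 within 100 bp, with the stronger 50% and with peaks of both replicates, and 0 to 1 without a replicate. The regulatory particle count of 3 was 1 with the stronger 50%, 1 with peaks of both replicates and 1 with the nearest start only, and 2 to 4 without a replicate. The testis-type count was 0 in each of these settings. The median best rank over all members with a peak, 7848 in the list of both, was 7939.5 to 8337 without a replicate and 7631 within 250 bp.

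Motifs were also counted in windows centred on the start, reaching 50 or 100 bp to each side. In the narrower one 7 of the 48 promoters held the Dref element (14.6%, against 5.56% of all promoters; 12 in the main window), 4 the GATA site (8.33%, against 5.86%; 14) and 4 the TATA box (8.33%, against 17.0%; 18). The GAGA element was in 1 in the narrower (against 11.5% of all) and 4 in the wider window (against 22.5%), and in 9 in the main one. The E-box was in 1 of the 48 in each centred window (2.08%), a testis-type gene, and in 0 in the main one. Its share over all promoters was 1.98% in the narrower, 2.88% in the wider and 4.20% in the main window. Shorter windows hold fewer letters. No paired analysis was possible because there is only 1 group. With peak lists alone, the depth behind a missing peak is unknown.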

Other observations

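Other large complexes of the cell had peaks of the optimal set at the shares given here side by side without a test, against 10.4% of all protein-coding genes with a median distance of 142 bp. Genes of cytoplasmic ribosomal proteins, with symbols that begin with RpL or RpS, had one at 37 of 92 genes (40.2%), with a median distance of 44 bp. Genes of the vacuolar proton pump, with symbols that begin with Vha, had one at 5 of 33 (15.2%), with a median distance of 159 bp. In the core and regulatory particle of the proteasome it was 4 of 32 (12.5%) with a median distance of 86 bp. The testis-type paralogues are left out of that count, while no paralogues were left out of the other sets. With them it was 4 of 48 (8.33%). Head-to-head neighbours stood at 39.1% of the ribosomal protein genes and 39.4% of the proton pump genes, against 65.6% of the standard proteasome genes. A single annotated start was found in 52.2%, 75.8% and 68.8% of these sets, in that order, and in 73.5% of all protein-coding genes. Genes with more starts had more chances to count.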
